A study of Homo sapiens with 6 samples.

Results

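The genes described here are the subunits of the transcription factor NF-kB and the inhibitors that its activity induces or that hold it in check. The 10 members are Nfkb1, Nfkb2, Rel, Rela and Relb, which encode the subunits, and Nfkbia, Nfkbib, Nfkbie, Nfkbiz and Tnfaip3, the inhibitors. They were chosen by symbol, and 10 of 10 were found among the 22989 genes of the count table. RNA was sequenced in 3 libraries of LINC00115 KD cells and 3 libraries labelled WT, to ask how LINC00115 acts on breast cancer stem cells (BCSC). All 6 libraries were labelled MDA-MB-231 PTX-resistant BCSC, that is, ALDH+ cells sorted from a paclitaxel-resistant culture of MDA-MB-231, a line of human triple-negative breast cancer cells. The KD cells carried a short hairpin RNA (shRNA) against LINC00115, delivered by a virus with puromycin selection. The KD libraries are named sh115-1 to sh115-3 in the labels, where the number is a replicate, while the study's text uses sh115-1 and sh115-2 for different shRNAs and names sh115-2 for this experiment. The labels call the controls WT, where the study's other experiments use a control shRNA, so effects of LINC00115 loss and of the shRNA or its vector cannot be told apart. Nothing in the labels states that the libraries of a group came from separate cultures, so p-values measure the spread between these libraries, which may be technical.

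NF-kB is a family of dimers. Rela, Rel and Relb encode subunits with their own activation domain. Nfkb1 and Nfkb2 encode precursors that are processed to DNA-binding partners without one. In resting cells the dimers are held in the cytoplasm by IkB proteins, until the IkB kinase (IKK) marks these for destruction. The classical inhibitors are IkB alpha (Nfkbia), IkB beta (Nfkbib) and IkB epsilon (Nfkbie). Nfkbiz encodes IkB zeta, a nuclear member of the IkB family that also helps to switch on a set of secondary response genes. Tnfaip3 encodes a ubiquitin-editing enzyme that stops signalling upstream of IKK. Several of these genes are themselves NF-kB targets, so that the pathway limits its own output. In triple-negative breast cancer cells, the pathway is known for driving cytokine genes and cell survival.

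The libraries held between 36979221 and 38799331 counts, and each member was counted at least 784 times in every library. The table names its genes as a mouse annotation does, with 4648 Gm names and 1135 Rik names, which are given to mouse genes without a functional name. Of 22989 symbols, 16 equal a human symbol as written and 14422 do so when case is ignored, among them 10 of 10 members. The counts were thus listed under genes of a mouse annotation, while the labels name human cells. The species of the sequenced cells could not be settled here. Each member's value is that of the gene listed under its mouse-style symbol. The table holds 0 genes named LINC00115, so the knockdown could not be checked in these counts. Markers of the labelled cells were mixed. Vim (at least 126885 counts per library), Cd44 (at least 32751), Krt8 (at least 17687) and Krt18 (at least 4856) were well counted. So were the mesenchymal genes Fn1 (at least 72342) and Twist1 (at least 1246). The mesenchymal genes Cdh2 and Snai2 had at most 2 and 1 counts, and Zeb1 had 23 to 64. The epithelial gene Krt19 had at most 7 counts, and Krt7 had 1 to 4 in WT and 49 to 74 in KD. Cdh1 had 1 to 3 counts in WT and 22 to 31 in KD. The epithelial gene Epcam and the stem cell genes Aldh1a3, Prom1 and Sox2 had at most 5 counts in any library, and Aldh1a1 between 8 and 52. Markers of other cells moved with the groups. Of 7 lung genes, 7 were higher in KD (summed level 0.742 to 0.820 normalized CPM in WT and 65.3 to 76.5 in KD), and of 6 kidney genes tested, 5 were higher and 1 lower (16.5 to 19.3 and 39.3 to 43.5 normalized CPM). Of 7 leukocyte genes tested, 5 were higher (summed level 87.9 to 99.4 and 195 to 211 normalized CPM), with Cd3e at 0 counts and Ptprc at 5 to 13. Among 6 endothelial genes, Cdh5 went from at most 14 to at least 2136 counts while Emcn had at most 1 and Pecam1 at most 19. Of 3 fibroblast genes tested, Pdgfra and Dcn were lower (summed level of the list 174 to 193 and 75.8 to 77.8 normalized CPM). WT replicate 3 held 92 Krt5 counts, against 0 in the other libraries, and 192 Krt14 counts, against 7 to 31 in the others. Without this library 5 members were still lower and 2 higher. The part of other cells in the values of NF-kB genes was not tested.

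Promoter sequences of the human genes were taken from RefSeq (GRCh38.p14) to show what members share in sequence. They were matched by symbol only. The counted genes carry the names of a mouse annotation, so their own promoters can differ from those shown and were not used here. The 250 bases before each start site were searched on both strands for the kappa-B consensus, the motif bound by NF-kB dimers, and for GGACTTTCC. Of the 10 members, 8 had at least 1 window, matched by symbol with case ignored; Relb and Nfkbie did not. Among these 8, the consensus was present before a start site of 7, and in 9 of their 14 windows. Of all 35116 windows, 9.96% held it. Genes with several start sites have several windows and more chance of a match. GGACTTTCC, in 0.333% of all windows, was found in those of NFKBIA, NFKB2 and TNFAIP3. In NFKB2 and TNFAIP3 it lay within a match to the consensus, and in NFKBIA apart from it. Shown are windows of inhibitors that were lower in KD (NFKBIA, NFKBIZ and TNFAIP3), of a subunit that was higher (NFKB1) and of a subunit that did not pass the test (REL). NFKB1 and NFKBIZ each had a window 2, not shown, with 0 and 2 matches to the consensus. Each window runs 5′ to 3′ along its gene, with matches to either motif on either strand in capitals.
NFKBIA (chr14:35404750-35404999, minus strand): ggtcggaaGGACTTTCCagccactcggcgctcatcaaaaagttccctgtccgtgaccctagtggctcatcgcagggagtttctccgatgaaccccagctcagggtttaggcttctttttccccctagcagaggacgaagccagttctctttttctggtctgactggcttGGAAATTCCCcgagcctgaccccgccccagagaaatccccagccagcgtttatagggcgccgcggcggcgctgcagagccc
NFKBIZ (chr3:101827740-101827989, plus strand): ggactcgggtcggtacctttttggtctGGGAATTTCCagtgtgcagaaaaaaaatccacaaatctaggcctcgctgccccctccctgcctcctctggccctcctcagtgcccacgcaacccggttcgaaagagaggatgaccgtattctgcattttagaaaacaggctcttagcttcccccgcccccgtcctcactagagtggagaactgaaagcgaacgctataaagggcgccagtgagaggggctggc
TNFAIP3 (chr6:137867009-137867258, plus strand): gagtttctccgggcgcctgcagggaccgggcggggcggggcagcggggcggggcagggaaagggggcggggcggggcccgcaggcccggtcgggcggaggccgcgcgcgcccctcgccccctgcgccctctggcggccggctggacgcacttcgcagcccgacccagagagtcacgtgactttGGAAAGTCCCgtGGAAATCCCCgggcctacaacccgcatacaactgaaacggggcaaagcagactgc
NFKB1 (chr4:102501109-102501358, plus strand): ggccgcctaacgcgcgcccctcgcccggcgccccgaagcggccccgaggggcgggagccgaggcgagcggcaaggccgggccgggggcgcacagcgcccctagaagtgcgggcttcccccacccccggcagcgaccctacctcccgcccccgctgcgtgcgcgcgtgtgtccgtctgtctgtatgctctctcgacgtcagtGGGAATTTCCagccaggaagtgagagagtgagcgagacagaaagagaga
REL (chr2:60881324-60881573, plus strand): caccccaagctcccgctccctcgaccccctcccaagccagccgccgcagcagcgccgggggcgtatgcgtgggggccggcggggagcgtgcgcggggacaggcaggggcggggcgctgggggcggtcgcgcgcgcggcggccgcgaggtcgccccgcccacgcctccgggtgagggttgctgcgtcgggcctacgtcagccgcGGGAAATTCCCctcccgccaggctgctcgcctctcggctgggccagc
In NFKBIA, GGGAATTTCC lay on the opposite strand, from 81 to 72 bases before the start site. The same letters lay on the gene's own strand in NFKB1, from 49 to 40 bases, and in NFKBIZ, from 223 to 214 bases before it. TNFAIP3 held 2 matches on the opposite strand, GGGACTTTCC and GGGGATTTCC, with 2 bases between them. Both windows of RELA held no match. Whether the motif goes with direction cannot be read here, since 7 of the 8 members with a window held it. It was found before genes that were lower, before NFKB1, which was higher, and before REL and NFKBIB, which did not pass the test. These are letters in human windows, and binding was not measured.

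Counts were scaled by the TMM method and are given as normalized CPM, counts as a share of the scaled library total. All 13497 genes that passed the filter on low counts entered edgeR's quasi-likelihood test, and p-values were adjusted over all of them by the Benjamini-Hochberg method. Lower and higher stand for an adjusted p under 0.05 in that test. All 10 members passed the filter. In KD, 5 of 10 members were lower, where 36.7% of all genes tested were lower, and 2 were higher, where 36.7% were higher. With 10 genes, neither share is read as particular to the members. The libraries of the groups did not overlap for the same 7 members, 5 with all KD libraries below all WT libraries (37.8% of all genes) and 2 with all KD libraries above (37.8%). No member changed by more than the fold of 2 that the study set, while 9.98% of all genes were past it on the lower side and 10.2% on the higher side. By an unadjusted p under 0.05, 7 members differed, and DESeq2 also placed 0 members past a fold of 2. The median size of the log2 fold change was 0.206 over the members and 0.453 over all genes tested.

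**Figure D1:**
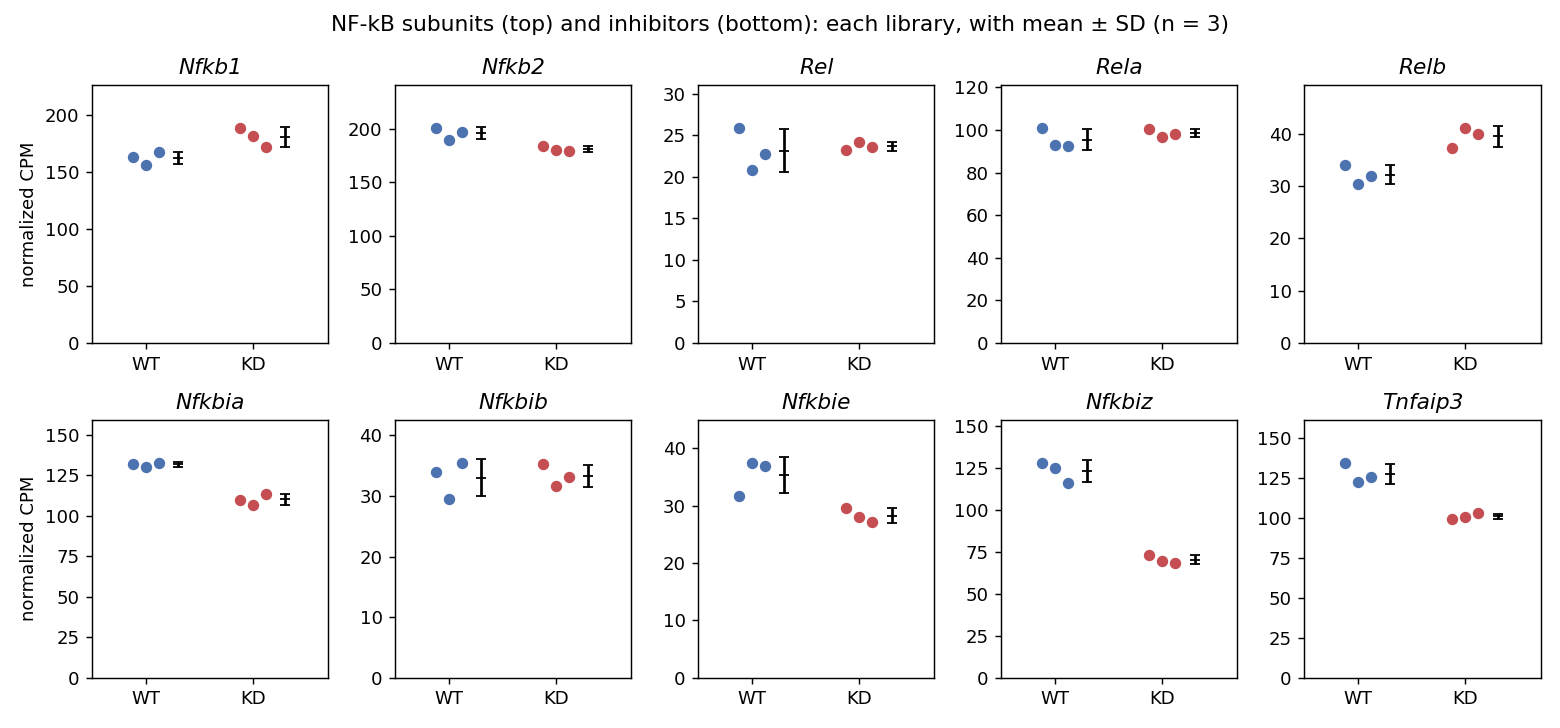
Normalized CPM (vertical axis, from 0) of each NF-kB subunit (top row) and inhibitor (bottom row) in the 3 WT libraries (blue) and the 3 KD libraries (red), with the mean ± SD of each group in black. Nfkbiz shows the widest gap, from 116 to 128 in WT to 68.4 to 73.3 in KD, while the groups overlap for Rel, Rela and Nfkbib.

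Among the inhibitors, 4 of 5 were lower in KD (36.7% of all genes tested), 0 were higher (36.7%), and Nfkbib did not pass the test. Nothing particular to the inhibitors is read from a count of 5. Nfkbiz fell most of the 10 members. It measured 128, 125 and 116 normalized CPM in the WT libraries and 73.3, 69.8 and 68.4 in the KD libraries. All KD libraries lay far below the lowest WT library. In RNA pooled from many cells, a lower level in every cell and fewer cells that express the gene cannot be told apart, here and below. The mean fell by 42.8% in the fitted model, a log2 fold change of −0.80 (± 0.05 SE, edgeR adjusted p = 4.64e-17), from 123 ± 6.48 to 70.5 ± 2.49 normalized CPM (SD, n = 3 libraries each). In size, this change exceeded that of 71.6% of all genes tested, and no other member exceeded 40% of them, with Tnfaip3 next at 38.9%.

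Tnfaip3, the ubiquitin-editing brake, measured 134, 122 and 125 normalized CPM in WT and 99.1, 101 and 103 in KD. The groups did not overlap, and the KD libraries lay close together. Its log2 fold change was −0.34 (± 0.04 SE, edgeR adjusted p = 1.86e-08), a fall to 0.792 of the WT level. Nfkbia, the inhibitor whose rapid resynthesis ends an NF-kB response, measured 132, 130 and 133 normalized CPM in WT and 110, 107 and 114 in KD. It was the member that varied least in WT (coefficient of variation 1.03%, against 2.96% in KD). The log2 fold change was −0.26 (± 0.04 SE, edgeR adjusted p = 8.68e-07).

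Nfkbie measured 31.7, 37.5 and 36.9 normalized CPM in WT and 29.6, 28.1 and 27.1 in KD. Its WT replicate 1 was the lowest of that group and came within 2.12 normalized CPM of the highest KD library, though the groups did not overlap. The log2 fold change was −0.32 (± 0.07 SE, edgeR adjusted p = 0.000138). Nfkbib, whose product is known for slow resynthesis and long-lasting binding of NF-kB, measured 33.9, 29.6 and 35.5 normalized CPM in WT and 35.2, 31.6 and 33.0 in KD. The groups overlapped fully, at 33.0 ± 3.06 and 33.3 ± 1.81 (SD, n = 3 each). Its log2 fold change was 0.01, with a 95% interval from −0.13 to 0.16 (adjusted p = 0.863), so that changes of the size seen in the other inhibitors lie outside the interval.

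Among the subunits, 1 of 5 was lower and 2 were higher (36.7% of all genes tested each way), and 2 did not pass the test. Relb, which pairs with the product of Nfkb2 in the alternative branch of the pathway, measured 34.1, 30.4 and 32.0 normalized CPM in WT and 37.4, 41.1 and 40.0 in KD. Every KD library lay above every WT library. The log2 fold change was 0.30 (± 0.07 SE, edgeR adjusted p = 0.000144), or 1.23-fold. Nfkb1 measured 163, 156 and 167 normalized CPM in WT and 189, 182 and 172 in KD. The gap between the highest WT and the lowest KD library was 4.36 normalized CPM, and the log2 fold change was 0.15 (± 0.04 SE, edgeR adjusted p = 0.000923).

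Nfkb2 went the other way. It measured 201, 190 and 197 normalized CPM in WT and 184, 180 and 180 in KD. The groups did not overlap, but the difference was small, with a fall of 7.40% and a log2 fold change of −0.11 (± 0.04 SE, edgeR adjusted p = 0.00773). Without KD replicate 3 it did not pass the threshold (log2 fold change −0.10, adjusted p = 0.0525).

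Rela, the activating subunit of the classical dimer, measured 101, 93.1 and 92.3 normalized CPM in WT and 101, 96.7 and 98.2 in KD. The groups overlapped, and the log2 fold change was 0.05, with a 95% interval from −0.05 to 0.14 (adjusted p = 0.373, edgeR). Rel, the subunit best known from lymphoid cells, measured 25.9, 20.8 and 22.8 normalized CPM in WT and 23.2, 24.2 and 23.5 in KD. It was the member with the widest spread in WT (coefficient of variation 11.1%), and the KD libraries lay within the WT range. Its 95% interval ran from −0.13 to 0.20 on the log2 scale, around a log2 fold change of 0.03 (adjusted p = 0.735).

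**Figure D2:**
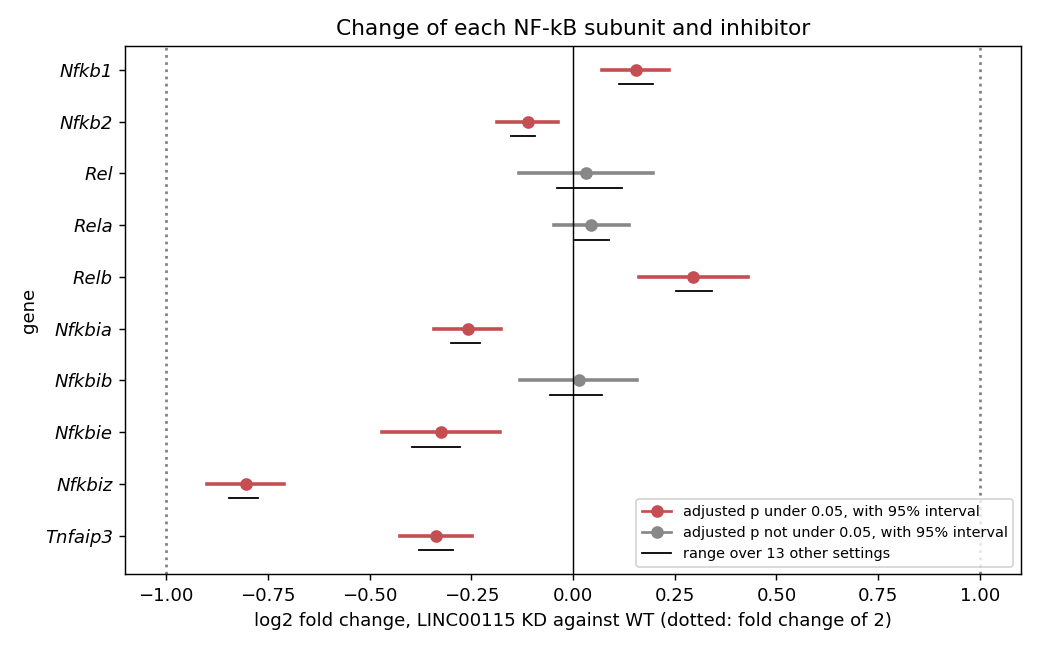
Log2 fold change of each member in LINC00115 KD against WT (horizontal axis), with its 95% interval in red where the adjusted p was under 0.05 and in grey where it was not; the thin black line under each gives the range over 13 other settings of the analysis. All intervals lie between the dotted lines that mark a fold change of 2, and 4 of the 5 inhibitors lie below 0.

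Ratios of counts between members within a library do not depend on scaling, and gene length drops out when libraries are compared. They were not tested, since the genes were chosen with earlier results known. Nfkb2 over Nfkb1, the ratio of the precursors, was 1.23, 1.21 and 1.18 in WT and 0.977, 0.991 and 1.05 in KD. Relb over Rela was 0.337, 0.326 and 0.347 in WT and 0.371, 0.425 and 0.407 in KD. Nfkbia over Rela, classical inhibitor over activating subunit, was 1.31, 1.40 and 1.44 in WT and 1.09, 1.11 and 1.16 in KD. In each of the 3 ratios the groups did not overlap, and the means changed by factors of 0.833, 1.19 and 0.809. These ratios restate the values of the members given above and are not read as a further result. How often ratios of other genes differ in this way was not examined.

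**Figure D3:**
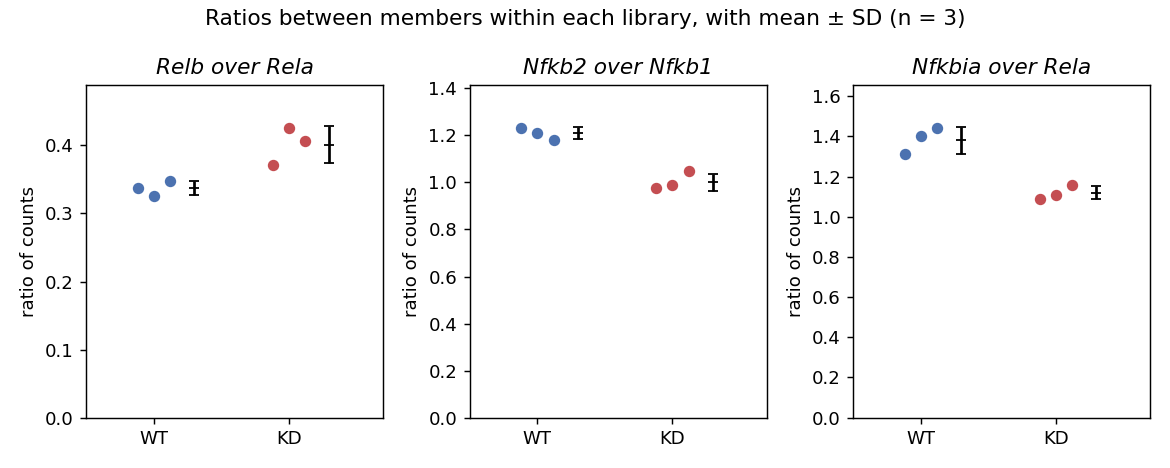
Ratio of counts (vertical axis, from 0) of Relb to Rela, Nfkb2 to Nfkb1 and Nfkbia to Rela in each WT library (blue) and KD library (red), with mean ± SD in black. The mean was 0.337 and 0.401 for Relb over Rela and 1.38 and 1.12 for Nfkbia over Rela, and in each panel the KD points lie apart from the WT points.

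The kinases that act on the IkB proteins were split. Of 10 genes of the IKK complex and the kinases and adaptors just upstream of it, 3 were lower and 4 were higher (36.7% of all genes tested each way), with a median log2 fold change of 0.02 against −0.01 over all genes. Ikbke, a noncanonical IKK also active in antiviral signalling, measured 81.4, 70.9 and 68.7 normalized CPM in WT and 33.0, 36.1 and 32.9 in KD. Its log2 fold change of −1.11 (± 0.06 SE, edgeR adjusted p = 1.20e-17) was the only one of the list past a fold of 2. Its relative Tbk1 fell by 0.11 on the log2 scale at an adjusted p of 0.0497, and did not pass in 8 of 13 other settings (DESeq2 size factors 0.0654, no low-count filter 0.0739, replicate block 0.0511, DESeq2 0.112, without WT replicate 1 0.216, without KD replicates 1, 2 and 3 0.0641, 0.190 and 0.128, all adjusted p). Tab3, which links the kinase TAK1 to ubiquitin chains, fell by 0.25.

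The subunits of the canonical IKK complex did not move together. Ikbkg, its regulatory subunit NEMO, rose from 73.8 ± 4.12 to 101 ± 3.95 normalized CPM (log2 fold change 0.46), and Chuk, the kinase IKK alpha, from 64.1 ± 3.03 to 85.0 ± 3.08 (log2 fold change 0.41). Ikbkb, the kinase IKK beta, measured 54.7 ± 1.43 and 54.4 ± 0.399 (adjusted p = 0.897, edgeR; SD, n = 3 each). Map3k14, the NF-kB inducing kinase of the alternative branch, rose by a log2 fold change of 0.24, and Tab1 by 0.19.

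Of 31 receptors and adaptors tested, 13 were lower (41.9%) and 10 were higher (32.3%), near the 36.7% of all genes tested each way, with a median log2 fold change of −0.08. The highest rises were those of the Toll-like receptors Tlr3 and Tlr2, while Tlr4, also listed, did not pass the test (log2 fold change −0.08, edgeR adjusted p = 0.291). Tlr3, a sensor of double-stranded RNA, measured 15.7, 15.8 and 16.9 normalized CPM in WT and 79.7, 94.4 and 84.2 in KD (log2 fold change 2.41), and Tlr2, a receptor of bacterial lipopeptides, rose from 28.2 ± 2.10 to 79.9 ± 2.38. Tnfrsf12a, the receptor of the cytokine TWEAK, rose from 126 ± 2.81 to 270 ± 12.7 normalized CPM, and Traf3, an adaptor that keeps the protein of Map3k14 low, from 73.6 ± 0.396 to 125 ± 5.25.

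Lower among the receptors and adaptors was Il1r1, the signalling receptor of interleukin-1, which measured 33.7, 39.9 and 37.1 normalized CPM in WT and 12.4, 14.3 and 12.7 in KD (log2 fold change −1.49, ± 0.08 SE, edgeR adjusted p = 8.87e-18). Birc3, a ubiquitin ligase of the TNF receptor complex and itself an NF-kB target, fell from 32.0 ± 1.02 to 20.0 ± 0.398 normalized CPM. Ticam1, the adaptor of Tlr3, fell from 22.7 ± 1.23 to 14.2 ± 1.07, in the direction opposite to its receptor. Irak1, a kinase downstream of Toll-like and interleukin-1 receptors, had 114 ± 5.90 normalized CPM in WT and 77.0 ± 4.24 in KD (SD, n = 3 each).

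Of 21 other brakes of the pathway tested, 11 were higher and 3 were lower (36.7% of all genes tested each way), with a median log2 fold change of 0.14. Their shares were opposite in order to those of the 5 inhibitors above, and the difference was not tested. Nkrf, which encodes a repressor of NF-kB genes, rose from 10.6 ± 0.300 to 26.1 ± 1.14 normalized CPM (log2 fold change 1.30, ± 0.09 SE, edgeR adjusted p = 1.76e-15). N4bp1 rose by a log2 fold change of 0.79, Commd1, which promotes the turnover of Rela protein, by 0.43, and Tnip2 by 0.39. Lower were Tnip1, a binding partner of the Tnfaip3 protein, which measured 104, 101 and 101 normalized CPM in WT and 58.3, 61.5 and 59.7 in KD (log2 fold change −0.77), Zc3h12a, a ribonuclease that degrades cytokine mRNAs (log2 fold change −0.62), and Tnip3 (log2 fold change −0.22), which did not pass without KD replicate 2 (edgeR adjusted p = 0.0555).

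The genes listed here as NF-kB targets were mostly higher. The count depends on how the lists were drawn, which was done with earlier results of these data known. Birc3, itself a target, was counted with the receptors and adaptors, where it was lower. Several of the 10 members are targets too and were counted apart, with 5 members lower and 2 higher. Genes of the other lists can also be targets. The split below is thus that of the list drawn, and not of all NF-kB targets. Of 42 names listed, 40 were in the table and 36 passed the filter on low counts. Of these 36, 24 were higher and 9 were lower (36.7% of all genes tested each way), 11 and 3 of them past a fold of 2, and the median log2 fold change was 0.51. Cxcl10, a chemokine that attracts T cells, measured 8.52, 6.73 and 10.2 normalized CPM in WT and 106, 123 and 108 in KD (log2 fold change 3.73, ± 0.08 SE, edgeR adjusted p = 3.16e-29). Ccl5, another chemokine, rose from 8.02 ± 0.261 to 60.6 ± 1.60 normalized CPM. Icam1, a leukocyte adhesion molecule, rose from 0.963 ± 0.0818 to 6.87 ± 0.121 and Saa3, an acute phase protein, from 4.70 ± 0.642 to 27.4 ± 0.350. Cxcl10, Ccl5 and Icam1 are also known as genes that interferons induce.

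The targets did not move as a block. Mmp9, a matrix-degrading protease, fell to 25.3 ± 1.25 normalized CPM from 149 ± 1.39 in WT (log2 fold change −2.55, ± 0.05 SE, edgeR adjusted p = 8.23e-31). Ier3, an early response gene, measured 660, 649 and 650 normalized CPM in WT and 199, 174 and 198 in KD. Csf2, the cytokine GM-CSF, fell from 3.55 ± 0.396 to 1.84 ± 0.477, and Sele, an endothelial adhesion molecule, from 6.10 ± 1.47 to 3.29 ± 0.436 (normalized CPM, SD, n = 3 each).

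**Figure D4:**
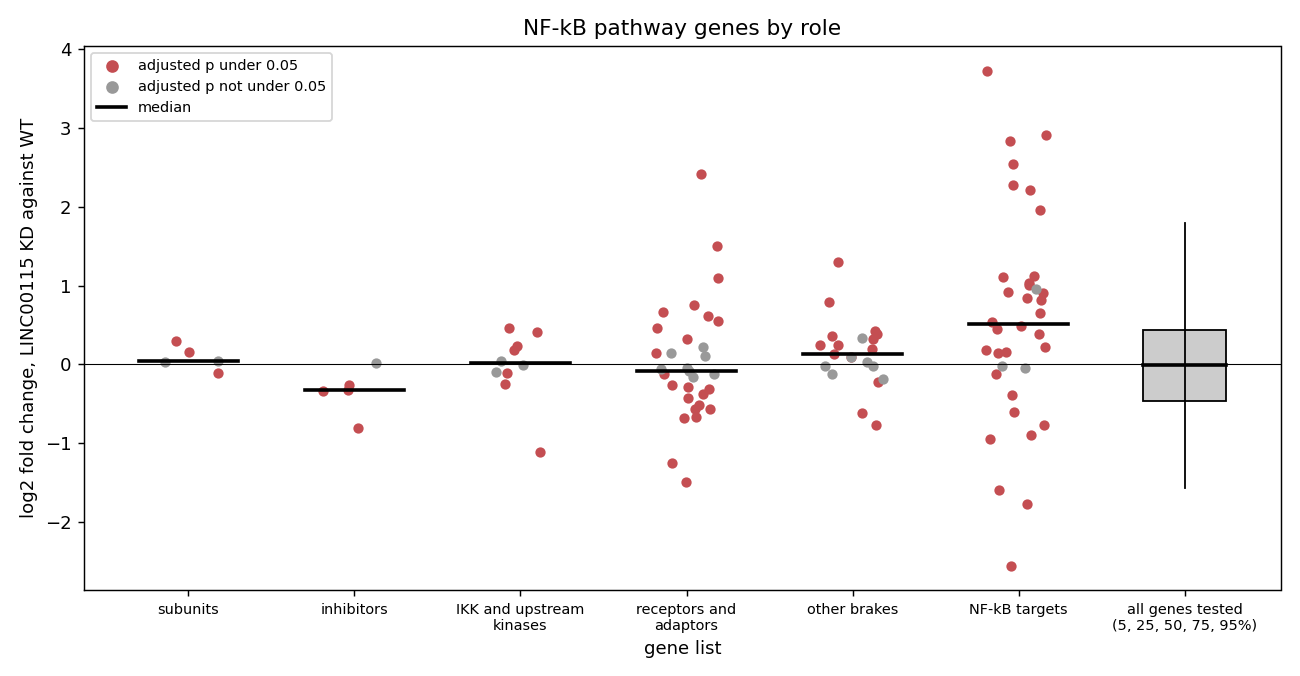
Log2 fold change in LINC00115 KD against WT (vertical axis) of each gene tested, by role in the NF-kB pathway, in red where the adjusted p was under 0.05 and in grey where it was not, with the median of each list as a bar; the box on the right gives the 5, 25, 50, 75 and 95% points of all genes tested. The median was −0.32 for the inhibitors, 0.05 for the subunits, 0.14 for the other brakes and 0.51 for the targets.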

How the data were processed

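RNA-seq read counts of 3 LINC00115 KD and 3 WT libraries were analysed. According to the study's methods, adapters were trimmed and reads were mapped to hg19 with HISAT2 at default settings, whereas the submitters' processing notes name hg38 with HISAT2, featureCounts and DESeq2. The methods name RNeasy and NEBNext kits, and the labels TRIzol and a SMARTER kit. Neither the annotation nor the strand setting is given in the sources used here, so counts of overlapping genes are uncertain. The deposited values are whole-number counts per gene, which the authors did not normalize, for 22989 genes. Columns were mapped to samples by name.

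The fit used edgeR 4.0.16 in R 4.3.3. After filterByExpr (a minimum count of 10 and a total of 15) and TMM scaling (factors 0.9901 to 1.014), 13497 genes entered the quasi-likelihood test, in a model with the group as the only term. A standard error is the absolute log2 fold change over the root of F, and 95% intervals use the test's degrees of freedom. The thresholds (adjusted p under 0.05, fold change over 2) are those of the study. Intervals and errors cover the spread between libraries. No library was a copy of another: chi-square per degree of freedom between replicates was at least 3.92. The pipeline was run on simulated counts with known changes, planted in far fewer genes than differed here. These were larger than the changes of all members except Nfkbiz, so smaller changes were not simulated. The members and lists were chosen with earlier results of these data known, and list symbols were matched with case ignored. The genes named are the 10 members and, of each pathway list, up to 4 genes each way with the largest change among those past the threshold whose higher group had 100 counts or more in each library. Ikbkb and Tlr4 were named after their values were seen. Levels were not compared between genes, since gene lengths were not used. Alternatives were other scalings, other filters, a replicate block, DESeq2 1.42.0, each replicate left out and a fold threshold for the lists.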

Additional observations from a re-analysis of the deposited data

How the results depend on the processing

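Of the 7 members past the threshold, Nfkb1, Relb, Nfkbia, Nfkbie, Nfkbiz and Tnfaip3 kept their direction and their side of it under all 13 alternatives that were fitted, and Nfkb2 under 12 of 13. The log2 fold change of Nfkbiz ranged from −0.85 to −0.77, that of Tnfaip3 from −0.38 to −0.30 and that of Relb from 0.25 to 0.34. The direction of Rel and Nfkbib, which did not pass the test, was not fixed. With upper quartile scaling, which moved the median of all genes to −0.047, Rel had −0.010 and Nfkbib −0.027. With library size only Nfkbib had −0.0053. With each replicate left out, Rel ranged from −0.039 to 0.119 and Nfkbib from −0.057 to 0.072, and Rel was negative without WT replicate 2 and Nfkbib without WT replicate 2 or KD replicate 1. The members lower numbered 4 to 5 and those higher 2 in these fits.

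Adding the fold threshold of 2 to the pathway lists left 1 kinase gene lower and 0 higher, 2 receptors and adaptors lower and 3 higher, 0 other brakes lower and 1 higher, and 3 targets lower and 11 higher. This follows from the added threshold. The other counts stayed within 1.5 times those reported. Of 31 other genes named, Tlr4 not among them, 28 kept their direction and side of the threshold under all 13 alternatives. The exceptions were Tbk1 and Tnip3, as given above, and Ikbkb, which did not pass the test and had 7.616e-05 with DESeq2 and −0.024 to 0.013 with each replicate left out. The kinases lower numbered 2 to 4. The causes were not tested.

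With the replicate number as a block, 5 members were lower and 2 higher, and 4906 genes were lower and 4932 higher in all. Over all genes tested, no pairing by number was seen. The deviations of same-numbered libraries from their group means correlated at −0.0147, −0.0214 and 0.0421, and 1 of 3 KD libraries correlated best with its own number. A pairing that touches only some genes was not tested. At 1029 or more counts per library, the fall of Nfkbie by 20.1% was resolved.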
